A study of Mus musculus with 12 samples.

Results

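The 8 genes described here encode the calcium-binding buffers and the calcium pumps of the plasma membrane that are best known from the cochlea. They were chosen by symbol: *Ocm*, *Pvalb*, *Calb1* and *Calb2* for the buffers and *Atp2b1*, *Atp2b2*, *Atp2b3* and *Atp2b4* for the pumps. All 8 were found among the 28686 symbols of the count table, and all 8 were among the 18459 genes with enough counts to be tested. RNA-seq was made from cochlear sensory epithelium of 6 *Sox2CreER/+Jag1fl/fl* mice and 6 *Sox2+/+* littermate controls at postnatal day 6. The sample labels give a mixed C57BL/6;129SV strain for both groups, while the study's methods name FVB/n for the *Jag1* floxed line. Pups of both groups had tamoxifen at P0 and P1, so the controls were exposed to the drug as well. Jagged1 is a Notch ligand of the supporting cells, and the Cre that removed it was driven by *Sox2*, which is active in supporting cells and also in glia of the cochlear nerve. The mutants also carried 1 *Sox2CreER* allele and the controls none, so the 2 differences in genotype cannot be told apart here. By the study's methods the controls were a mix of *Jag1+/fl* and *Jag1fl/fl* mice without Cre, and which control had which is not given in the sources used here.

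A hair cell takes in calcium through its transduction channels and through the channels that trigger transmitter release. Buffers bind that calcium within the cell, and plasma membrane calcium ATPases drive it out. Oncomodulin, the product of *Ocm*, is known as a buffer of outer hair cells, and ATP2B2 as the pump of the stereocilia, whose loss causes deafness and imbalance in mice. Calbindin D28k (*Calb1*), parvalbumin (*Pvalb*) and calretinin (*Calb2*) are known both from hair cells and from spiral ganglion neurons. ATP2B1 and ATP2B4 are widely expressed pumps, and ATP2B3 is mainly a neuronal one. The question addressed here was therefore whether the genes known from hair cells and those known from neurons had the same levels in mutant and control cochleae, and which cells' markers they moved with.

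*Ocm* and *Pvalb* are shown by sequence because each is the other's closest relative among the buffers in protein sequence and yet they had different patterns in these libraries. Coding sequence from GENCODE M21 on GRCm38 is written 5′ to 3′ on the coding strand, from 30 bases before the first calcium-binding loop to the stop codon. The capitals mark the 36 bases that encode each canonical loop of 12 residues in which an EF-hand, the helix-loop-helix fold of these proteins, holds its calcium ion.
Pvalb: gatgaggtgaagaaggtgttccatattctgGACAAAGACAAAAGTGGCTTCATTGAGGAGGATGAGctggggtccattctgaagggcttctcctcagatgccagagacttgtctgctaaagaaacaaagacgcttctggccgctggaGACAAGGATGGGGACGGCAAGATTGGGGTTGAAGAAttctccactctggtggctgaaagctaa
Ocm: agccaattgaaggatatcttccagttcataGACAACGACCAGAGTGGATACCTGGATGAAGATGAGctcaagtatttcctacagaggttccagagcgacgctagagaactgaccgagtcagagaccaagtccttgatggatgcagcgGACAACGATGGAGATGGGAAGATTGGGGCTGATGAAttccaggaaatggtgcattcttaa
These stretches begin at base 124 of 333 in *Pvalb* and base 124 of 330 in *Ocm*, counted from the start codon, and each gene had 2 such loops. *Calb1* had 4 loops by the same pattern in a protein of 261 residues, and *Calb2* had 5 in 271 residues. Of 109 aligned residues, 47.7% were identical between *Pvalb* and *Ocm*, and *Calb1* and *Calb2* shared 59.6%. The longest run of bases that *Pvalb* and *Ocm* had in common was 15, far below the read length of 100 nt. The 4 pumps were more alike, with 74.3% to 84.5% identical residues, and the longest run shared by any pair was 56 bases, between *Atp2b2* and *Atp2b3*.

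The genes lie on 8 different chromosomes. In GENCODE M21 (GRCm38), *Ocm* spans chr5:144019804-144026670 and *Pvalb* spans chr15:78191114-78206400, both on the reverse strand. *Calb1* is at chr4:15881264-15908064 on the forward strand, and *Calb2* at chr8:110137502-110168210 on the reverse strand. Of the pumps, *Atp2b1* (chr10:98914406-99026143) and *Atp2b3* (chrX:73503086-73571005) are on the forward strand. *Atp2b2* (chr6:113743831-114042613) and *Atp2b4* (chr1:133699457-133801041) are on the reverse strand. An antisense transcript, *Gm15083*, crosses an exon of *Atp2b2*. Whether the counting used strand is not given in the sources used here, and *Gm15083* itself had at most 21 counts in a library.

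Total counts lay between 28498549 and 36134983 per library. *Jag1* checked the genotypes: it had 102 ± 14.7 CPM (counts scaled to library size; SD, n = 6) in controls and 36.4 ± 6.55 CPM in mutants, and all 6 mutants were below the lowest control (log2 fold change -1.48, SE 0.13, edgeR adjusted p = 0.000257). All 18 hair cell markers were detected, and their summed level was 527 to 589 CPM in controls and 443 to 645 CPM in mutants. Markers of cells outside the sensory epithelium were present too and stood apart in some libraries. The 9 Schwann cell markers (such as *Mbp*, which encodes a myelin protein) summed to 139 to 947 CPM in controls and 742 to 4800 CPM in mutants, with mutants 1 and 2 highest at 4800 and 3629 CPM. The 13 neuron markers (such as *Nefl* and *Nefm*, which encode neurofilaments) summed to 62.7 to 202 CPM in controls and 108 to 1225 CPM in mutants. Mutant 4 was the highest of all in neuron markers and the lowest mutant in Schwann cell markers. In edgeR 0 of these 22 genes were called at an adjusted p under 0.05, and DESeq2 called 10 neuron and 8 Schwann cell markers. Over all genes tested edgeR called 0.19% and DESeq2 3.35%, or 2.56% counted in the higher direction. At an unadjusted edgeR p under 0.05 all 13 neuron and all 9 Schwann cell markers were higher. The background was 6.52% of all genes tested. The rise was not uniform: *Prph* had a median of 0.927 CPM in controls and 0.888 in mutants, with a highest mutant at 155. Its unadjusted exact permutation p was 0.649, against 0.0606 for *Tubb3* and 0.00866 for *Nefl* and *Nefm*. Markers of skeletal muscle (4.77 to 12.3 CPM in controls, 5.40 to 15.2 in mutants) and of central nervous tissue (1.22 to 1.71 and 1.30 to 2.28) were low in both groups. Macrophage markers summed to 305 to 387 CPM in controls and 248 to 331 in mutants. At an unadjusted edgeR p under 0.05, 3 of 7 were lower, against 4.04% of all genes tested. Of the 7, edgeR called 0 and DESeq2 called 1, *Csf1r*, a receptor gene (log2 fold change -0.24, edgeR adjusted p = 0.126). *Csf1r* was lower in all 6 mutants than in any control, and ranges without overlap were found for 0.997% of all genes tested. Supporting cell markers summed to 2282 to 2510 CPM in controls and 1944 to 2448 in mutants, and 0 of 9 had an unadjusted p under 0.05. No marker of any list was at 0 in all libraries. In RNA of whole tissue, a larger number of cells of a type and more RNA per cell cannot be told apart. From stained cochleae of the same age, the study reported no significant difference in spiral ganglion neurons per unit area. It also reported similar hair cell numbers and a loss of Hensen's cells, a type of supporting cell.

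Among the 8 genes, the data showed higher mean levels of *Pvalb*, *Calb2* and *Atp2b3* in mutants, each with a large spread, a smaller difference for *Atp2b2*, and no clear difference for *Ocm*, *Calb1*, *Atp2b1* and *Atp2b4*. None of the 8 was called by edgeR, where the background was 0.19% of all genes tested (35 genes). DESeq2 called 3 of the 8 (*Pvalb*, *Calb2* and *Atp2b3*), against a background of 3.35%, or 2.56% counted in the higher direction, and limma-voom called none, with 0.103% of all genes called. At an unadjusted edgeR p under 0.05 there were 4 of 8, all higher in mutants, where the background was 10.6% in either direction, 6.52% higher and 4.04% lower. The levels of mutants and controls overlapped for every one of the 8, and ranges without overlap were found for 0.997% of all genes tested. The median log2 fold change was 0.29 over the 8 genes and 0.00295 over all tested genes.

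**Figure D1:**
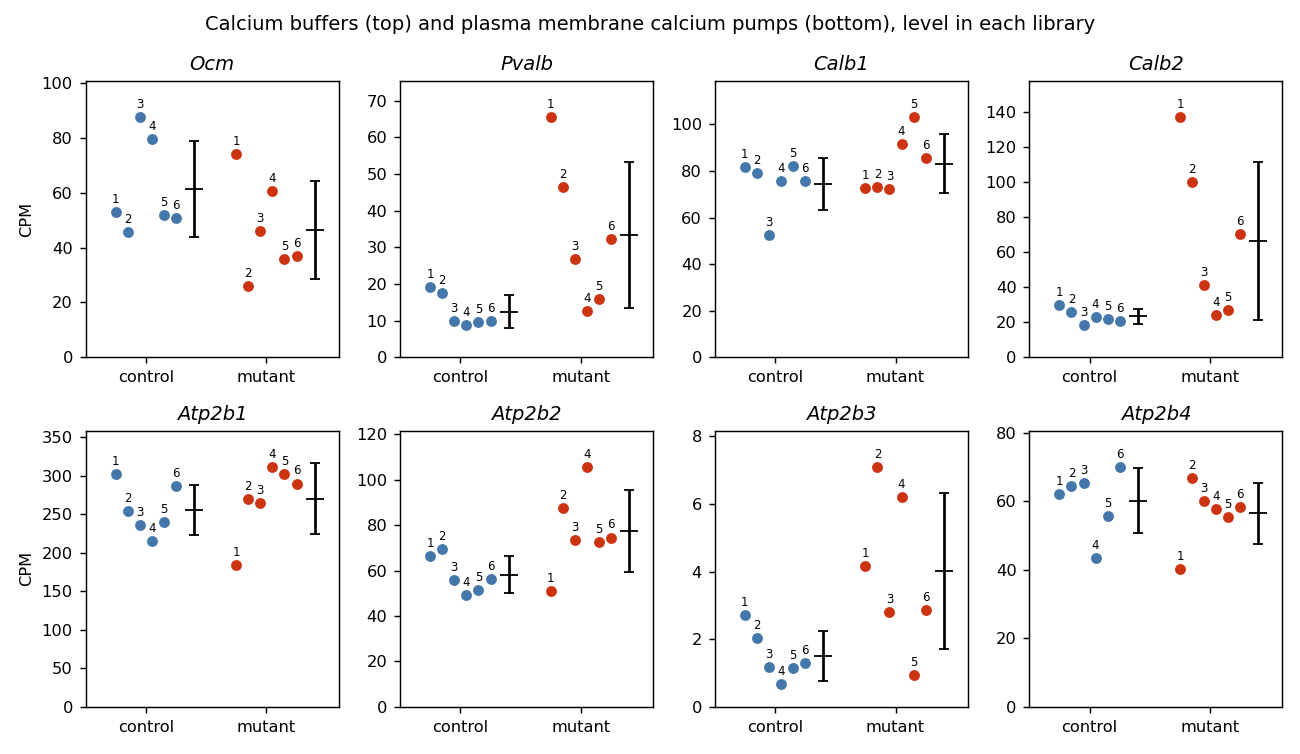
Level of each gene in each library, in CPM on a linear axis from 0, with the replicate number above each point and the mean ± SD of the 6 libraries beside them. Mutants 1, 2 and 6 are the 3 highest libraries for *Pvalb* and *Calb2*, mutants 2 and 4 are highest for *Atp2b3*, and mutant 1 is the lowest library for *Atp2b1* and *Atp2b4*.

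*Ocm*, the buffer of outer hair cells, was at 45.7 CPM in the lowest control, with a median of 52.4 and a highest value of 87.6. In mutants its level was 25.9 at the lowest, 41.4 at the median and 74.1 at the highest. Of the 6 mutants, 3 were below the lowest control and none was above the highest. The difference did not pass the test (log2 fold change -0.40, SE 0.25, edgeR adjusted p = 0.682, with an unadjusted exact permutation p = 0.141). Within the controls, libraries 3 and 4 stood at 87.6 and 79.6 CPM while the other 4 lay between 45.7 and 52.8, so the spread within a genotype was as large as the difference between them. Prestin (*Slc26a5*), the motor protein of outer hair cells, was 12.9 ± 4.40 CPM in controls and 11.4 ± 5.49 CPM in mutants.

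*Pvalb* ranged from 8.72 to 19.2 CPM in controls with a median of 9.91. In mutants it ranged from 12.7 to 65.5 CPM with a median of 29.5. All 6 mutants were above the control median and 4 above the highest control, while mutants 4 and 5, at 12.7 and 15.9 CPM, lay inside the control range. The mean was 12.5 ± 4.61 CPM in controls and 33.3 ± 19.9 in mutants (log2 fold change 1.42, SE 0.40). This did not pass edgeR's test over all genes (adjusted p = 0.146) and did pass that of DESeq2 (adjusted p = 0.0263). The unadjusted exact permutation p was 0.0130.

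*Calb2* had the largest fold change of the 8 in edgeR. Its level was 18.3 to 29.9 CPM in controls (median 22.4) and 23.9 to 137 CPM in mutants (median 56.0). Mutants 1, 2 and 6 were at 137, 100.4 and 70.4 CPM, mutant 3 was at 41.5, and mutants 4 and 5 were again inside the control range. The log2 fold change was 1.52 (SE 0.41), with an adjusted p of 0.134 in edgeR and 0.0128 in DESeq2, and an unadjusted exact permutation p of 0.0152. The log2 ratio of *Calb2* to *Pvalb* was 0.96 ± 0.32 in controls and 0.93 ± 0.21 in mutants, so the ratio of the 2 buffers was nearly the same in both groups although the level of each varied several-fold. The log2 ratio of *Calb2* to *Ocm* was -1.37 ± 0.56 in controls and 0.31 ± 1.17 in mutants.

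*Calb1* was at 52.6 to 81.9 CPM in controls (median 77.4) and 72.1 to 103 CPM in mutants (median 79.4). The groups overlapped in most libraries, and 3 mutants were above the highest control. The log2 fold change was 0.16 (SE 0.12, edgeR adjusted p = 0.739, unadjusted exact permutation p = 0.286). Control 3 was low at 52.6 CPM, with the other 5 controls between 75.5 and 81.9, and the same library was the highest of all for *Ocm*.

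Among the pumps, *Atp2b1* had the most counts. It was at 215 to 302 CPM in controls (median 247) and 184 to 312 in mutants (median 280), with a log2 fold change of 0.08 (SE 0.12, edgeR adjusted p = 0.907). Mutant 1 was the lowest of the 12 libraries, and the other 5 mutants lay between 264 and 312 CPM. *Atp2b4* was similar, at 43.5 to 70.1 CPM in controls and 40.1 to 67.0 in mutants, with mutant 1 again the lowest (log2 fold change -0.09, SE 0.12, edgeR adjusted p = 0.896). For both genes the groups overlapped almost entirely.

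*Atp2b2*, the pump of the stereocilia, was at 49.2 to 69.4 CPM in controls (median 56.2) and 50.9 to 106 CPM in mutants (median 74.0). Above the highest control were 5 of 6 mutants, and mutant 1 was near the bottom of the control range. The mean was 58.1 ± 8.14 CPM in controls and 77.5 ± 18.2 in mutants. The log2 fold change of 0.41 (SE 0.14) did not pass the test over all genes in edgeR (adjusted p = 0.250) or DESeq2 (adjusted p = 0.116), with an unadjusted exact permutation p of 0.0433. Mutant 4 was highest at 106 CPM, and without it the log2 fold change was 0.31. Without mutant 1 the log2 fold change was 0.51 (edgeR adjusted p = 0.0954), the highest value with 1 library left out.

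*Atp2b3* was by far the lowest of the 8, with 22 to 234 counts in a library. Its level was 0.685 to 2.71 CPM in controls (median 1.24) and 0.929 to 7.10 CPM in mutants (median 3.52). Again 5 of 6 mutants were above the highest control, led by mutants 2 and 4 at 7.10 and 6.19 CPM, and mutant 5 was among the low controls. The log2 fold change was 1.41 (SE 0.44), with an adjusted p of 0.176 in edgeR and 0.0213 in DESeq2 and an unadjusted exact permutation p of 0.0346. Without mutant 5, edgeR called *Atp2b3* (log2 fold change 1.62, adjusted p = 0.0313). That refit called 356 genes over all genes tested, against 35 with all 12 libraries. No other refit that left out 1 library called *Atp2b3*.

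To compare levels between genes, CPM was divided by the length of the exons in kilobases. On that scale *Ocm* was the most abundant of the 8 in controls at 93.3 ± 26.7 CPM per kilobase, followed by *Atp2b1* at 35.9 ± 4.60. *Calb1* (17.6 ± 2.61), *Calb2* (13.4 ± 2.36) and *Pvalb* (11.96 ± 4.43) came next, with ranges that overlapped from one to the next. *Atp2b2* (6.12 ± 0.857) and *Atp2b4* (5.05 ± 0.794) overlapped one another, and *Atp2b3* was last at 0.313 ± 0.151 CPM per kilobase. In mutants the order was *Ocm* (70.7 ± 27.1), *Calb2* (38.3 ± 25.9), *Atp2b1* (37.9 ± 6.47), *Pvalb* (32.0 ± 19.1), *Calb1* (19.7 ± 3.01), *Atp2b2* (8.16 ± 1.91), *Atp2b4* (4.74 ± 0.748) and *Atp2b3* (0.832 ± 0.478). Each of the first 4 overlapped with the next, and *Atp2b2* overlapped with *Atp2b4*. The place of *Calb1* depends on the length used: divided by coding length it was at 95.0 CPM per kilobase in controls, above *Atp2b1* at 69.9.

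Expressed as shares of the 4 buffers per exonic kilobase, *Ocm* made up 67.5% ± 8.83 in controls and 45.1% ± 13.9 in mutants (SD, n = 6). The share of *Calb2* was 10.1% ± 2.44 in controls and 22.3% ± 10.1 in mutants, and that of *Pvalb* was 9.07% ± 3.85 and 19.0% ± 6.85. *Calb1* held 13.4% ± 3.36 and 13.6% ± 5.32. A share falls when another rises, so these values are not independent of the levels above. The make-up of the pumps differed less: *Atp2b1* was 75.7% ± 1.72 of the 4 in controls and 73.4% ± 2.58 in mutants, and *Atp2b2* was 13.0% ± 1.21 and 15.7% ± 1.61. *Atp2b4* held 10.7% ± 1.12 and 9.23% ± 0.916, and *Atp2b3* held 0.641% ± 0.245 and 1.65% ± 0.917. The summed level of the pumps was 47.3 ± 5.88 CPM per kilobase in controls and 51.7 ± 8.68 in mutants, and that of the buffers was 136 ± 21.8 and 161 ± 56.8.

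**Figure D2:**
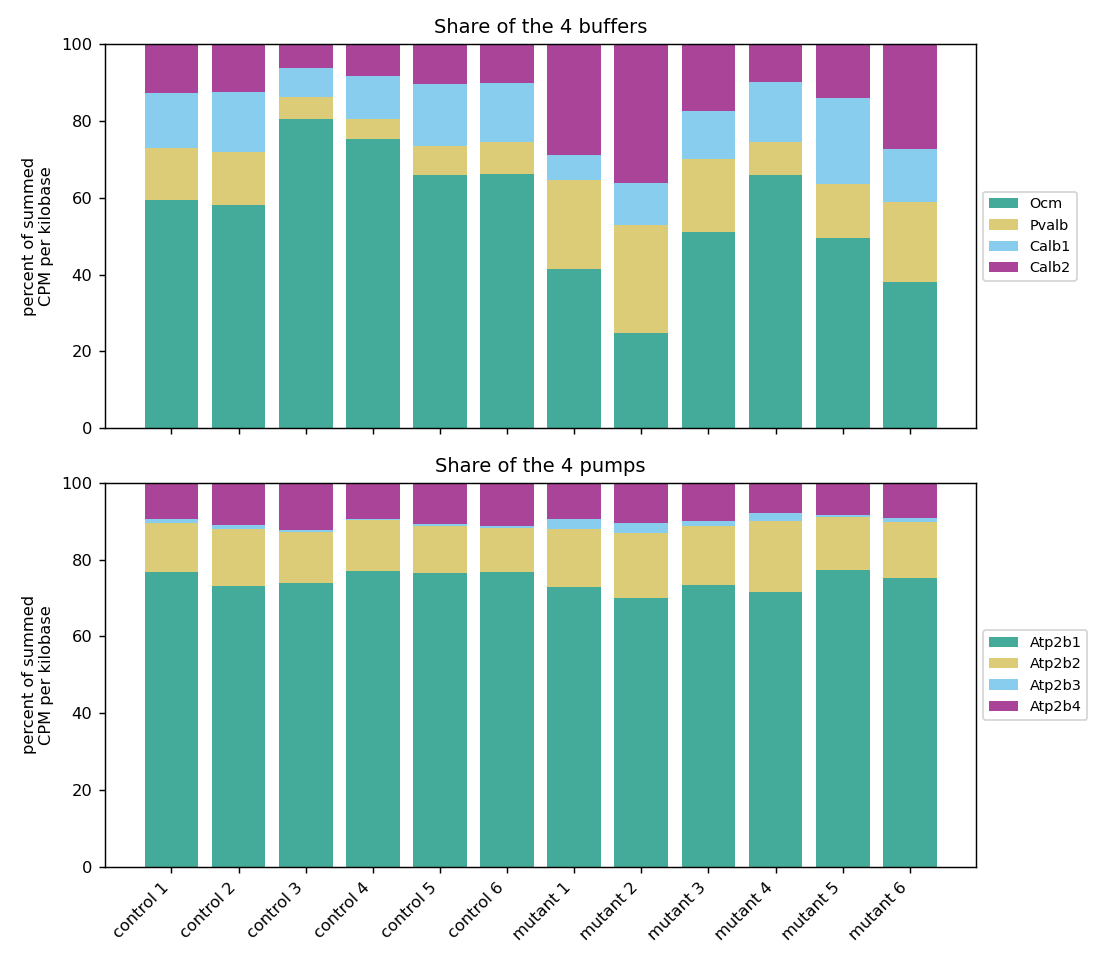
Share of each gene in the summed CPM per exonic kilobase of the 4 buffers (top) and of the 4 pumps (bottom), in percent, 1 bar for each library. *Ocm* holds 24.8% to 65.9% of the buffers in mutants and 58.0% to 80.4% in controls, while *Atp2b1* holds 70.0% to 77.2% of the pumps in every library.

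The 8 genes were then set against the cell type markers within each genotype, so that the difference between mutants and controls itself did not enter. The score of a library was the mean log2 CPM of the markers of a cell type, genotype means were removed from score and gene, and correlations were tested by permutation within genotype and adjusted over the 16 pairs of genes and scores. *Atp2b3* moved with the neuron markers (r = 0.95, rho = 0.92, adjusted permutation p = 0.00144 for r and 0.00368 for rho, n = 12 libraries), and r was 0.94 without control 4 and mutant 4, the 2 libraries farthest from the median score. *Pvalb* and *Calb2* did not pass the test with the neuron score (r = 0.44 and 0.36, rho = 0.42 and 0.36, adjusted permutation p = 0.438 and 0.649 for r). Without those 2 libraries r was 0.97 and 0.93. Mutant 4, which had the most neuron marker RNA, was inside the control range for both genes. *Atp2b2* did not pass either (r = 0.44, rho = 0.66, adjusted permutation p = 0.438 for r and 0.183 for rho). Its r was 0.095 without the same 2 libraries and 0.89 without mutant 1. *Ocm* and *Calb1* had r of 0.02 and -0.04 with the neuron score.

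Of *Ocm*, *Calb1*, *Atp2b1*, *Atp2b2* and *Atp2b4*, only *Atp2b1* passed the test with the hair cell score as the mean of its markers. With their summed CPM *Atp2b2* passed as well (r = 0.84, adjusted permutation p = 0.0354). *Ocm* and *Calb1* had r of -0.06 and 0.16 and rho of 0.07 and 0.11, with adjusted permutation p of 0.957 and 0.919 for r. These values depended on single libraries: r was 0.57 for *Ocm* without mutant 1 and 0.53 for *Calb1* without control 3. The hair cell score varied little, with an SD of 0.107 in controls and 0.233 in mutants. For the neuron score the SD was 0.864 and 1.20. *Atp2b1* passed the test for r (r = 0.79, adjusted permutation p = 0.0469) and not for rho (rho = 0.59, adjusted permutation p = 0.222). With the log2 of the summed hair cell marker CPM in place of the score its r was 0.92 (adjusted permutation p = 0.00224). *Atp2b2* (r = 0.75, rho = 0.48, adjusted permutation p = 0.1005 for r) and *Atp2b4* (r = 0.63, rho = 0.45, adjusted permutation p = 0.119 for r) did not pass. Without mutants 1 and 4, the 2 libraries farthest from the median score, r was 0.48 for *Atp2b1*, 0.52 for *Atp2b4* and 0.07 for *Atp2b2*, so the relation of *Atp2b2* rests on those libraries. *Calb2* ran opposite to the hair cell score (r = -0.84, rho = -0.75, adjusted permutation p = 0.0171 for r and 0.0562 for rho), with r of -0.58 without the same 2 libraries. *Pvalb* did not pass (r = -0.72, rho = -0.48, adjusted permutation p = 0.1005 for r), with r of -0.25 without them.

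A second set of 16 correlations was added after the levels had been seen. It used the Schwann cell score and, as a technical measure, the slope of each library's values on transcript length over 17529 genes. *Pvalb* moved with the Schwann cell score (r = 0.85, rho = 0.90, adjusted permutation p = 0.00872 for r and 0.00808 for rho), and r was 0.90 without control 4 and mutant 1. *Calb2* had r = 0.75 and rho = 0.74 (adjusted permutation p = 0.0281 for r and 0.0583 for rho), and r was 0.93 without the same pair of libraries. *Ocm* had r = -0.31 and *Calb1* had r = -0.27, with rho of -0.22 and -0.28 and adjusted permutation p of 0.641 and 0.649 for r. Without control 4 and mutant 1, r was -0.75 for *Ocm* and -0.16 for *Calb1*. Schwann cell and neuron scores were themselves correlated within genotypes (r = 0.54), and whether neurons or Schwann cells carried the *Pvalb* and *Calb2* transcripts was not tested. Hair cell and Schwann cell scores had r = -0.47 with each other. Whether the relation of *Calb2* with the hair cell score is separate from that with the Schwann cell score was not tested.

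Of the pumps, *Atp2b2* moved with the transcript length slope. Its r was 0.90 and its rho 0.90 (adjusted permutation p = 0.00320 for r and 0.00808 for rho), and r was 0.85 without control 5 and mutant 1. For *Atp2b1* r was 0.78 and for *Atp2b4* 0.75, with rho of 0.72 and 0.58 and adjusted permutation p of 0.0436 and 0.0555 for r, and r was 0.55 for both without those libraries. *Atp2b1* thus passed for r and not for rho (adjusted permutation p = 0.0583), and *Atp2b4* passed for neither. *Atp2b3* did not pass (r = 0.47, rho = 0.67, adjusted permutation p = 0.383 for r and 0.0869 for rho), but had r = 0.94 without control 5 and mutant 1. The slope of mutant 1 was the lowest of all 12 libraries, at -0.0901 log2 units for each doubling of length. The slope ranged from -0.0746 to 0.0502 in controls and from -0.0901 to 0.0632 in mutants, and the 2 groups did not differ beyond their spread (exact permutation p = 0.565). The hair cell score had r = 0.71 with the same slope, and the neuron score had r = 0.37 with it. The relations of *Atp2b1*, *Atp2b2* and *Atp2b4* with the hair cell score and with transcript length therefore cannot be told apart. *Atp2b3* had r = 0.95 with the neuron score and 0.47 with the slope, and whether length had a part in the former was not tested.

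**Figure D3:**
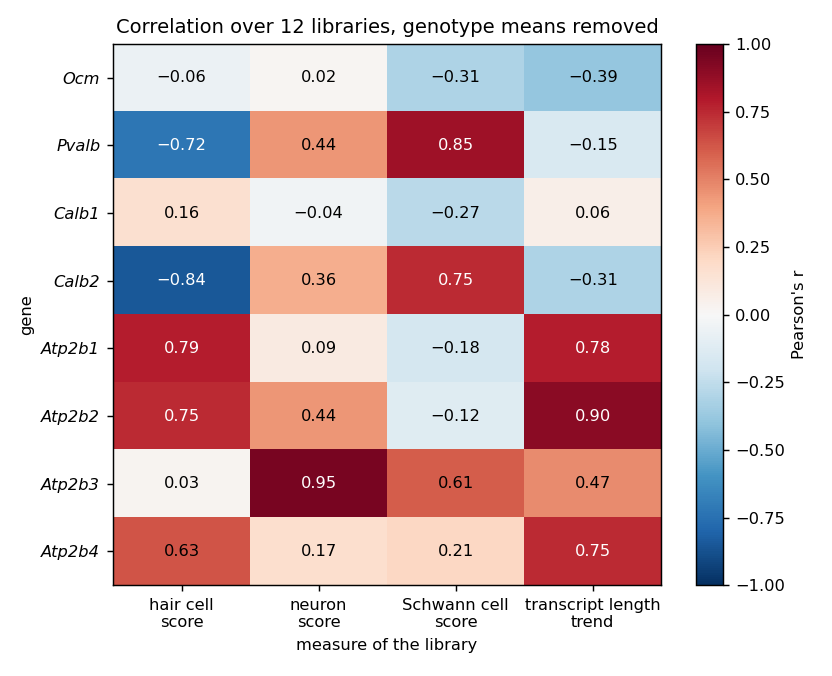
Pearson correlation of each gene with the hair cell, neuron and Schwann cell marker scores and with the transcript length slope, over 12 libraries with the genotype means removed. *Atp2b3* is highest with the neuron score (0.95), *Pvalb* and *Calb2* with the Schwann cell score (0.85 and 0.75), and *Atp2b2* with the length slope (0.90), while *Ocm* and *Calb1* stay between -0.39 and 0.16 in all 4 columns.

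**Figure D4:**
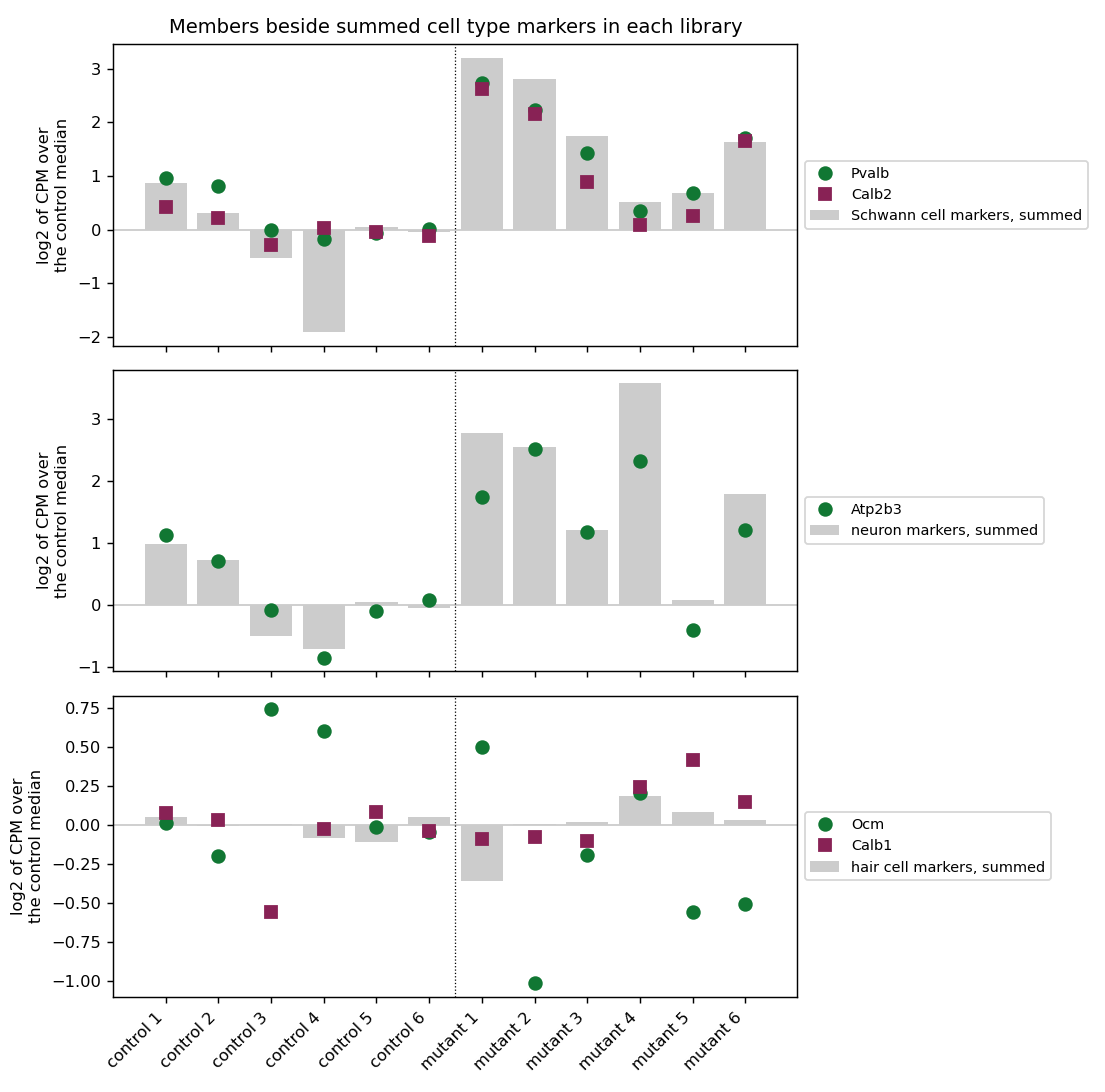
Level of 5 genes (points) beside the summed CPM of a marker list (grey bars) in each library, both as log2 of CPM over the control median, with mutants to the right of the dotted line. *Pvalb* and *Calb2* stand high where Schwann cell markers do (mutants 1, 2, 3 and 6), and *Atp2b3* follows the neuron markers with mutant 4 high and mutant 5 low. *Ocm* and *Calb1* follow neither each other nor the hair cell markers, which vary less than the other marker lists shown.

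Because markers of neurons and Schwann cells moved with the genotype, the fold changes were refitted with these scores and without the libraries that stood apart. With mutants 1 and 2 left out, an alternative added after the data were seen, the log2 fold change was 0.82 (SE 0.32) for *Pvalb*, 0.80 (SE 0.29) for *Calb2* and 1.09 (SE 0.47) for *Atp2b3*, with edgeR adjusted p of 0.455, 0.401 and 0.484. With the neuron score in the model it was 0.57 (SE 0.47) for *Pvalb*, 0.70 (SE 0.58) for *Calb2* and -0.30 (SE 0.27) for *Atp2b3*. With the Schwann cell score, also added later, it was 0.04 (SE 0.31), 0.24 (SE 0.45) and 0.65 (SE 0.52). For *Atp2b2* these 3 refits gave 0.49, 0.15 and 0.47, in the same order, and for *Ocm* they gave -0.46, -0.46 and -0.17. A score that differs between the groups takes part of any genotype difference with it, so the part of the scores in these fold changes was not tested.

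**Figure D5:**
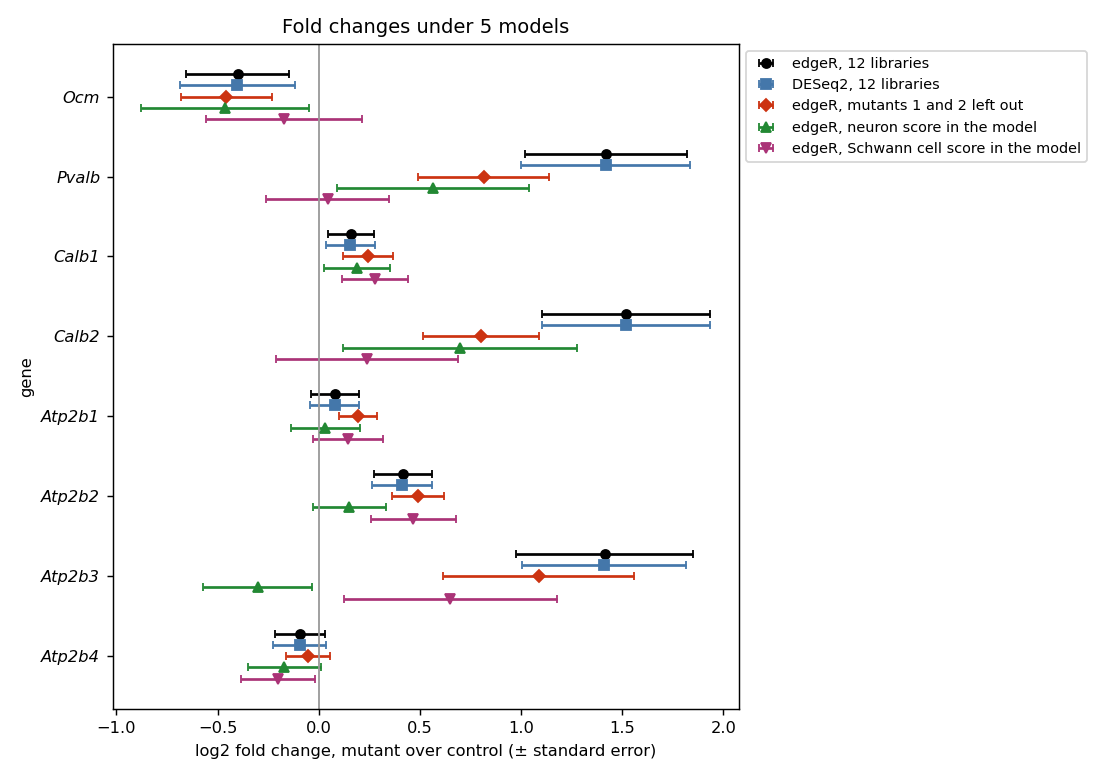
Log2 fold change of each gene, mutant over control, with its standard error, in edgeR and DESeq2 on 12 libraries, in edgeR without mutants 1 and 2, and in edgeR with the neuron or the Schwann cell score as a covariate. The values of *Pvalb*, *Calb2* and *Atp2b3* lie between 1.41 and 1.52 in the first 2 models and nearer 0 or below it in the others, while those of *Calb1*, *Atp2b1* and *Atp2b4* stay between -0.20 and 0.28.

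The other genes of calcium handling were taken from 6 lists with 70 tested genes. None of the 70 was called in edgeR, 15 had an unadjusted p under 0.05 (11 higher and 4 lower in mutants), DESeq2 called 8 and limma-voom called 0. Over all genes tested, edgeR called 0.19%, DESeq2 3.35% and limma-voom 0.103%. At an unadjusted edgeR p under 0.05 the background was 10.6%, with 6.52% higher and 4.04% lower. Their median log2 fold change was 0.00031. Of 33 tested EF-hand buffers and sensors, 6 were higher and 3 lower at an unadjusted p. The 3 with the smallest p were *Cabp1*, a calmodulin-like regulator of calcium channels (log2 fold change 1.49, edgeR adjusted p = 0.0834), *Kcnip2*, a subunit of Kv4 potassium channels (2.11, adjusted p = 0.0937), and *Necab1*, a neuronal calcium-binding protein (2.26, adjusted p = 0.108). All 3 were low, at 0.579 to 1.19 CPM on average in controls. *Scgn*, *S100g*, *Rcvrn* and *Cabp5* had too few counts to be tested.

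The partners and alternatives of the pumps gave few differences. *Nptn* and *Bsg*, which encode the basigin-family subunits that the plasma membrane pumps need, had log2 fold changes of -0.03 and -0.13, with unadjusted p of 0.589 and 0.0968. Among 9 sodium-calcium exchangers, *Slc24a2* was at 5.53 ± 3.81 CPM in controls and 15.2 ± 7.51 in mutants (log2 fold change 1.46, edgeR adjusted p = 0.250). *Slc8a3* was at 111 ± 14.6 and 93.7 ± 8.41 CPM (log2 fold change -0.24, edgeR adjusted p = 0.267), and the mitochondrial exchanger *Slc8b1* had a log2 fold change of -0.08. None of the 5 pumps of the endoplasmic reticulum and Golgi had an unadjusted p under 0.05, with log2 fold changes of 0.04 for *Atp2a2*, 0.04 for *Atp2a3* and -0.10 for *Atp2a1*.

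Of 14 genes for calcium stores, *Ryr2*, a release channel, and *Itpr3*, an inositol trisphosphate receptor, had log2 fold changes of 0.90 and 0.32 (edgeR adjusted p = 0.260 and 0.401), and the store protein gene *Calr* had -0.21. Of 7 genes for mitochondrial uptake, *Mcub*, listed in the table under its older symbol *Ccdc109b* and known as a negative subunit of the uniporter, had 1.59 (edgeR adjusted p = 0.127, DESeq2 adjusted p = 0.0195) from 4 to 112 counts in a library. *Micu3*, a regulator of the uniporter, had 0.40 (edgeR adjusted p = 0.209), and *Letm1* had -0.09.

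Within genotypes, the genes of the set fell into groups of like pattern, given as a description over 12 libraries. *Pvalb* and *Calb2* had r = 0.93 with each other, the highest value among the 8. The pumps *Atp2b1* and *Atp2b2* had r = 0.79, *Atp2b1* and *Atp2b4* 0.75, and *Atp2b2* and *Atp2b4* 0.70. Among 14821 genes with a mean of at least 1 CPM, the 3 most like *Pvalb* were *Aldh1a3* (r = 0.97), which encodes a retinaldehyde dehydrogenase, *Mal* (0.96), a myelin protein gene, and *Ina* (0.95), a neurofilament gene that is also in the neuron list. For *Calb2* they were *Cnp* (0.95), another myelin protein gene, *Cyp2j6* (0.94) and *Pvalb* itself. *Atp2b3* was most like *Scn1a* (0.98), a neuronal sodium channel gene, *Peg13* (0.97) and *Ank1* (0.96).

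The other 5 genes had different neighbours. *Ocm* was most like *Tns4* (r = 0.93), *S100b* (0.93), which encodes another EF-hand protein, and *Tmem221* (0.93). *Calb1* was most like *Sox21* (0.95), a transcription factor gene, *Hs6st2* (0.93) and *C78339* (0.92). *Atp2b1* was most like *Dennd1b*, *Skil* and *Eea1* (each 0.96). *Atp2b2* was most like *Lrp1b* (0.98), *Pcdh9* (0.97) and *Atrn* (0.97), and *Atp2b4* was most like *4930402H24Rik* (0.98), *Piezo1* (0.98), a mechanically gated channel gene, and *Gm16638* (0.97). These are the highest of many values over the same 12 libraries, which share depth and tissue make-up, and no test was made of them.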

How the data were processed

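RNA-seq counts of 6 mutant and 6 control cochleae, grouped by the genotype in the sample labels, were analysed. The authors deposited whole-number counts per gene symbol, neither normalized nor pooled. The submitters' processing notes name Trimmomatic 0.32, STAR 2.4.2a, HTSeq 0.9.1 and DESeq2 1.10.1, and the genome build GRCm38.p4. Annotation and strandedness are not given in the sources used here. The table of the authors' own comparison (means, fold changes and p-values) was not used.

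Genes averaging 5 or more counts per library were fitted by edgeR 4.0.16 in R 4.3.3 (quasi-likelihood F-test, TMM, robust, no covariates) on all 12 libraries, and p-values were adjusted by Benjamini-Hochberg over all genes. The SE is the log2 fold change over the square root of F. Single genes were also compared by two-sided exact permutation of log2(CPM + 0.1) over 924 divisions, where the smallest p is 0.00216. Scores used log2 CPM with a prior count of 2, and correlations 100000 two-sided permutations within genotype. Lengths and coordinates came from GENCODE M21 (GRCm38), with the bases of the union of exons as the length. The fits were tested on simulated data.

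Alternatives were DESeq2 1.42.0, limma-voom (limma 3.58.1), RLE factors, other filters, the replicate number as a block, marker scores as covariates, coding length and leaving out each library. Besides the 8 genes, *Jag1* and marker genes, each related list names its called genes or else its 3 genes of smallest p, and each of the 8 its 3 most correlated genes. The genes and lists were chosen with earlier results of these data known. Libraries of a genotype differed by more than counting error in all 30 pairs, so none was the same library counted again. That check cannot tell whether any came from the same mouse. Each library is taken as 1 mouse, as the labels give 6 cochlear samples per genotype without saying whether ears were pooled.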

Additional observations from a re-analysis of the deposited data

Results flagged for a closer look

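In 3 of 32 groups of 6 values examined, 1 library lay far from the other 5 by Dixon's test at the 95% level, which chance alone does in about 5% of groups. *Calb1* was at 52.6 CPM in control 3, with the other 5 controls between 75.5 and 81.9 CPM. *Atp2b1* was at 184 CPM in mutant 1, with the other 5 mutants between 264 and 312 CPM. The summed hair cell markers were at 443 CPM in mutant 1, with the other 5 mutants between 570 and 645 CPM.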

How the results depend on the processing

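None of the 8 fold changes was called, so a refit that stays uncalled does not show stability: with the Schwann cell score *Pvalb* went from 1.42 to 0.04 and *Calb2* from 1.52 to 0.24. The only change of direction among the 8, leaving out single libraries included, was that of *Atp2b3* with the neuron score. DESeq2 called 619 genes, 3 of the 8 (*Pvalb* at 1.42, *Calb2* at 1.52 and *Atp2b3* at 1.41) and 8 related genes. limma-voom called 19 genes, no filter gave 57, the neuron score as a covariate 2 (with *Atp2b3* at -0.30) and the Schwann cell score 3, against 35. The causes of these differences in counts were not tested. Libraries with the same replicate number did not all deviate together (correlations from -0.19 to 0.27, 3 of 6 over 0.1, and 2 of 6 controls closest to their own number), so the numbers were not taken as pairs. With the replicate block, 131 genes were called, 1 of the 8 (*Pvalb*, 1.28, adjusted p = 0.0182) and 2 related genes.

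Leaving out 1 library gave 14 (without control 2 or 6) to 356 (without mutant 5) genes called, within 1.5 times of 35 only without control 1 or mutant 3. Of the 8 it gave 0 to 1, and of related genes 0 to 4, the higher number each time without mutant 5. The log2 fold change was 1.11 to 1.59 for *Pvalb*, 1.18 to 1.69 for *Calb2* and 1.17 to 1.64 for *Atp2b3*, lowest for the first 2 without mutant 1 and for *Atp2b3* without mutant 2. With the hair cell score, r was -0.82 to -0.54 for *Pvalb*, -0.042 to 0.53 for *Calb1*, -0.88 to -0.73 for *Calb2*, -0.38 to 0.57 for *Ocm*, 0.53 to 0.86 for *Atp2b1*, 0.50 to 0.83 for *Atp2b2*, -0.27 to 0.22 for *Atp2b3* and 0.30 to 0.76 for *Atp2b4*. With the neuron score, r was 0.26 to 0.96 for *Pvalb*, -0.25 to 0.41 for *Calb1*, 0.087 to 0.84 for *Calb2*, -0.17 to 0.16 for *Ocm*, -0.080 to 0.48 for *Atp2b1*, 0.23 to 0.89 for *Atp2b2*, 0.91 to 0.98 for *Atp2b3* and -0.10 to 0.46 for *Atp2b4*. Of the 3 relations called with these 2 scores, that of *Atp2b3* with the neuron score kept its call in all 12 cases. The relations with the Schwann cell score and the length slope were not refitted with single libraries left out. That of *Calb2* with the hair cell score was lost without mutants 1, 4 or 5, and that of *Atp2b1* was kept only without control 1 or 3. *Pvalb* passed with the hair cell score without control 4 and *Atp2b4* without mutant 2. *Pvalb* and *Calb2* passed with the neuron score without mutant 4 (r = 0.96 and 0.84), and *Atp2b2* did without mutant 1 (0.89).

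With summed marker CPM in place of the mean, *Calb2* and *Atp2b2* had r of -0.73 and 0.84 with the hair cell score (adjusted p = 0.0504 and 0.0354). *Atp2b1* had 0.92 with the summed markers (adjusted p = 0.00224) and 0.78 with RLE factors (adjusted p = 0.0503). Per coding kilobase the control levels were 37.7 for *Pvalb*, 95.0 for *Calb1*, 27.7 for *Calb2*, 188 for *Ocm*, 69.9 for *Atp2b1*, 15.6 for *Atp2b2* and 14.9 for *Atp2b4*, and the pump shares were 69.4%, 15.5%, 0.372% and 14.7% for *Atp2b1* to *Atp2b4*. Counting error is largest for *Atp2b3* among the 8, with 22 to 234 counts in a library. The scores stand for tissue make-up only as far as their markers do.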
